A study of Mus musculus with 2 samples.

Results

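The caveolin and cavin genes of the mouse, Cav1, Cav2, Cav3, Cavin1, Cavin2 and Cavin3, were examined in RNA-seq of differentiated female germline stem cells (FGSCs). They were chosen by name, as genes of the main membrane and coat proteins of caveolae, and by their counts in these libraries, which were already known. The counts of all IDs of each gene were summed. They are 6 of the 55017 genes to which the IDs of the count files could be assigned, and the values below describe them without a test.

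FGSCs are proliferating germline cells derived from the ovary. The differentiated FGSCs were female CD-1 cells labelled as being in premeiotic interphase, and single FGSCs had been seeded on granulosa cells, which are the somatic cells of the ovarian follicle, grown as a monolayer. For 3 days their medium contained retinoic acid (RA, 10 µM) and the growth factor BMP4 (10 ng/mL) and lacked GDNF, EGF and LIF. Both libraries, replicates 1 and 2, belong to this group, and each was made from a few cells by a Smart-seq2 protocol, in which polyadenylated RNA is captured with a poly(T) primer and the cDNA is amplified by PCR. The labels do not say whether the 2 libraries came from separate cultures, and their spread may thus be technical. FGSC libraries without the induction and oocyte libraries were not analysed here.

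Caveolae are small flask-shaped pits of the plasma membrane that are rich in cholesterol and sphingolipids. Caveolins are hairpin proteins inserted into the inner leaflet of the membrane, where they form oligomers, and cavins are soluble proteins that assemble on them as a coat. Caveolae buffer the membrane against tension and take part in lipid transport and signalling, and they are abundant in endothelial cells, adipocytes, muscle and fibroblasts.

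The libraries differed widely in depth, so each value is given per library. Replicate 1 held 1517151 counts on 15412 of the 129311 IDs listed, and replicate 2 held 12442 counts on 4259 IDs. On the scale of counts per 1000000 of the library (CPM), 1 count was 0.659 in replicate 1 but 80.4 in replicate 2. The smallest level taken as shown, 3 counts, was 1.98 CPM and 241.1 CPM, respectively. IDs that could be assigned to 1 gene held 86.7% of replicate 1 and 91.6% of replicate 2. Mitochondrial genes took 11.9% and 7.82% of the counts. Intervals are 95% Poisson intervals of counts or 95% Wilson intervals of shares, and cover counting error only, since PCR reads without molecular identifiers are not independent molecules.

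The caveolin genes are related in sequence, which bears on whether reads of one could be counted for another. The stretch of 60 coding bases in which the 3 caveolins are most alike is shown for this reason. It holds the codons of the caveolin signature motif, the best conserved part of the family. The sequences were read from the GENCODE M21 transcripts of GRCm38 on the plus strand, each is spliced across an exon junction, and capitals mark the 34 bases that are the same in all 3.
Cav1 (chr6:17308037-17339163): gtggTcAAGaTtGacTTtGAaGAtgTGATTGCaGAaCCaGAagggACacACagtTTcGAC
Cav2 (chr6:17281502-17281945): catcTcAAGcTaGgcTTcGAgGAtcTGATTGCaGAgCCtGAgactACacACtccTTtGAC
Cav3 (chr6:112459917-112472187): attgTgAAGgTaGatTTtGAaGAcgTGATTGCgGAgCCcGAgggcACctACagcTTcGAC

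Even in this stretch, Cav1 had 45 of 60 bases in common with Cav3 (75%), 40 with Cav2 (66.7%), and Cav2 had 39 in common with Cav3 (65%). The longest run shared by the transcripts of any pair of the 6 genes was 15 bases, between Cav1 and Cav3. None of the 31-base windows of the 6 genes occurred in another of them. Cavin3 was the only one of the 6 genes to have such windows in common with any other annotated gene, 344 of 1632 windows, all in Gm45667 on the opposite strand, and that gene was listed at 0 counts in both replicates.

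Caveolin-1 is the caveolin required for caveolae outside muscle. Cav1 (ENSMUSG00000007655.16) lies on chromosome 6 from 17306335 to 17341452 on the plus strand, and its main transcript encodes 178 residues and a short form 147. It had 625 counts in replicate 1 (577 to 676) and 0 in replicate 2. This was 412 CPM (380 to 446) in replicate 1, and 119.6 counts per kilobase of exon and 1000000 counts (FPKM, 110 to 129). All of these counts were on the accession of the Cav1 protein, and the other 6 IDs of Cav1 were at 0 in both replicates, as were 2 IDs that could belong to Cav1 or Cav2. Cav1 thus held most counts of the 6 genes, 37.1% of their sum (34.8% to 39.4%).

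Caveolin-2 joins caveolin-1 in hetero-oligomers and depends on it to reach the cell surface. Cav2 (ENSMUSG00000000058.6) lies upstream of Cav1 on the same strand, from 17281185 to 17289115, and encodes 162 residues. It had 379 counts in replicate 1 (342 to 419), 0 in replicate 2, and a level of 249.8 CPM (225 to 276) and 74.9 FPKM (67.6 to 82.8) in replicate 1. The FPKM of Cav1 was 1.60 times that of Cav2 in replicate 1, and their counting intervals did not overlap. Both neighbouring genes were therefore counted in the same library, each on an accession of its own.

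Caveolin-3 is the caveolin of skeletal, cardiac and smooth muscle. Cav3 (ENSMUSG00000062694.7) lies on chromosome 6 from 112459505 to 112472872 on the plus strand and encodes 151 residues. It was listed at 0 counts in both replicates. Its single transcript of 1157 bases overlaps no other ID. The smallest level taken as shown, 3 counts, would be 1.71 FPKM for Cav3 in replicate 1 but 208.4 FPKM in replicate 2. In replicate 1, the FPKM of Cav1 was 70.0 times this level of Cav3. The markers of skeletal and cardiac muscle were at or near 0 in the same library: 6 of 8 were at 0, Ttn had 5 counts and Ckm 1, and their summed level was 3.95 CPM. Of all protein-coding genes with no shared ID, 47.3% had 1 or more counts in that library.

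Cavin-1 is the coat protein required for caveolae to form and was first named as a factor of transcript release by RNA polymerase I. Cavin1 (ENSMUSG00000004044.9) lies on chromosome 11 from 100956733 to 100970887 on the minus strand and encodes 392 residues. It had 207 counts in replicate 1 (180 to 237), of which 206 were on its protein accession and 1 on the non-coding transcript Cavin1-202, and 0 counts in replicate 2. The level in replicate 1 was 136.4 CPM (118 to 156) and 38.0 FPKM (33.0 to 43.6). Cavin1 was thus lower than both counted caveolins: the FPKM of Cav1 was 3.14 times and that of Cav2 1.97 times the FPKM of Cavin1.

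Cavin-2 binds phosphatidylserine and helps to bend the membrane of the caveola. Cavin2 (ENSMUSG00000045954.7) lies on chromosome 1 from 51289126 to 51302960 on the plus strand and encodes 418 residues. It had 93 counts in replicate 1 (75.1 to 114) and 0 in replicate 2, and its level in replicate 1 was 61.3 CPM (49.5 to 75.1) and 20.1 FPKM (16.2 to 24.6). Cavin2 was the lowest of the 5 counted genes, and the FPKM of Cavin1 was 1.90 times that of Cavin2.

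Cavin-3 binds protein kinase C delta and joins the coat through cavin-1. Cavin3 (ENSMUSG00000037060.3) lies on chromosome 7 from 105480083 to 105482300 on the minus strand and encodes 260 residues. It had 380 counts in replicate 1 (343 to 420) and 0 in replicate 2. With exons of 1662 bases its level was 250.5 CPM (226 to 277) and 150.7 FPKM (136 to 167) in replicate 1, the highest of the 6 genes with the union of exons as the length. Per kilobase of bases of the counted ID alone, Cavin3 was at 194.5 FPKM. On that scale Cav1 was at 5493 FPKM, which rests on 75 bases, or at 179.1 FPKM with both Cav1 forms under 1 ID, as given below. With the union of exons, the FPKM of Cavin3 was 1.26 times that of Cav1, 3.96 times that of Cavin1 and 7.51 times that of Cavin2. The accession that carried these counts lies in the file at a place where it could belong to Cavin3 or to its neighbour Cckbr, and was assigned to Cavin3 because it is the accession of the reviewed entry of the cavin-3 protein, so the value of Cavin3 is less certain than those of the other genes.

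**Figure D1:**
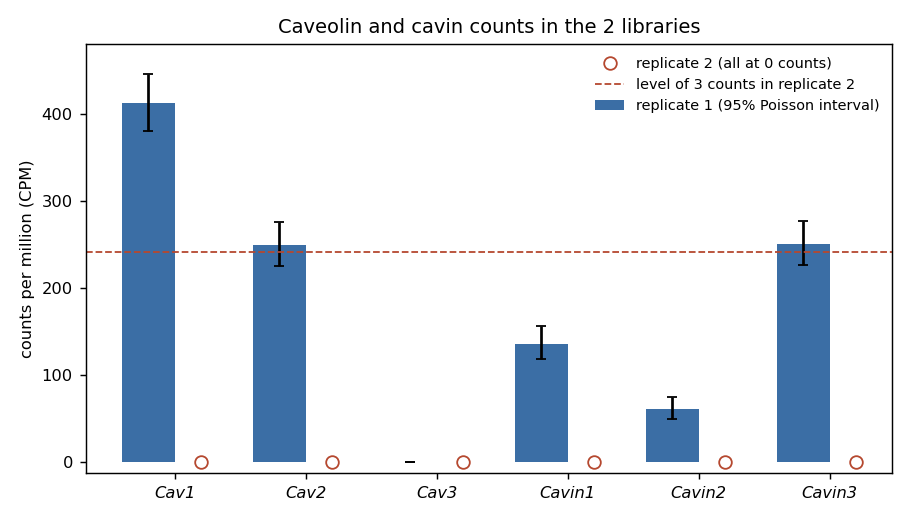
CPM (vertical axis) of the 6 genes in replicate 1 (bars, with 95% Poisson intervals) and replicate 2 (open circles). Replicate 1 ranged from 0 for Cav3 to 412 CPM for Cav1, and every circle lies at 0, with the dashed line at the 241.1 CPM that 3 counts represent in replicate 2.

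By FPKM in replicate 1, the order was Cavin3, Cav1, Cav2, Cavin1, Cavin2 and Cav3. No neighbours in this order had overlapping counting intervals, and the closest pair was Cavin3, with a lower bound of 136, and Cav1, with an upper bound of 129. By counts without length, Cav1 came first and Cavin3 second, and the other 4 genes kept their places. The 3 caveolins summed to 1004 counts in replicate 1 (943 to 1068) and the 3 cavins to 680 (630 to 733). With the union of exons as the length, the summed FPKM was 194.5 for the caveolins and 208.8 for the cavins, in which Cavin3, the shortest of the counted genes, made up 150.7. The order of these sums depends on the length. Per kilobase of bases of the counted ID alone, given below, the caveolins summed to more than the cavins.

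In replicate 1, the 6 genes together had 1684 counts (1605 to 1766), 1110 CPM or 0.111% of the library (0.106% to 0.116%). In replicate 2 they summed to 0 of 12442 counts, where 3 counts would be a share of 0.0241%. Their summed CPM in replicate 1 was 4.60-fold this level of 3 counts over the 6 genes. At the CPM of replicate 1, 13.8 counts of the 6 genes would fall in a library of the depth of replicate 2. For single genes the same figure was 5.13 for Cav1, 3.12 for Cavin3, 3.11 for Cav2, 1.70 for Cavin1 and 0.763 for Cavin2. The CPM of replicate 1 was 1.71-fold the level of 3 counts in replicate 2 for Cav1 and 1.04-fold for Cav2 and Cavin3. It lay below this level, 241.1 CPM, for Cavin1 and Cavin2. The lower bounds of Cav2 (225 CPM) and Cavin3 (226 CPM) were also below it, and that of Cav1 (380 CPM) was above it. A difference of Cavin1 or Cavin2 between the libraries was thus not detectable at this depth, and one of Cav2 or Cavin3 was not shown. In libraries of a few cells, fewer cells of a type and less RNA per cell cannot be told apart.

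A gene at 0 in replicate 2 was common at these depths. Of the 1498 protein-coding genes with 93 to 625 counts in replicate 1, the range of the counted caveolin and cavin genes, 1127 were at 0 in replicate 2, which is 75.2%. The 5 counted genes were all at 0 there. At 3 or more counts, 4.22% of the 13657 protein-coding genes with no shared ID were counted in replicate 2, and none of the 6 genes was.

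In replicate 1, 5 of the 6 genes had 3 or more counts, against 36.0% of the 13657 protein-coding genes. Set against these genes by FPKM, Cavin3 lay within the highest 1.79%, Cav1 within 2.37% and Cav2 within 3.43%. Cavin1 lay within the highest 5.93% and Cavin2 within 9.58%. Cav1 and Cav2 are not among these genes themselves, as they have IDs that could belong to either. The ranks also depend on the annotation, since reads on bases of several IDs may be uncounted while all exons enter the length. The median over the 6 genes was 56.5 FPKM, whereas that of all 13657 genes was 0 and their upper quartile was 2.50 FPKM. Of the 6 genes, Cavin3, Cav1 and Cav2 exceeded the 95th percentile of 47.3 FPKM. The protein-coding genes nearest to Cavin3 in log2(FPKM + 1) over both libraries were Frg1 (150.9 FPKM), Hmgb1 (150.4 FPKM), Tmem176b (148.7 FPKM) and mt-Co2 (148.4 FPKM), each also at 0 in replicate 2. With 2 libraries, of which 1 is at 0, this closeness reflects the level in replicate 1 alone.

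**Figure D2:**
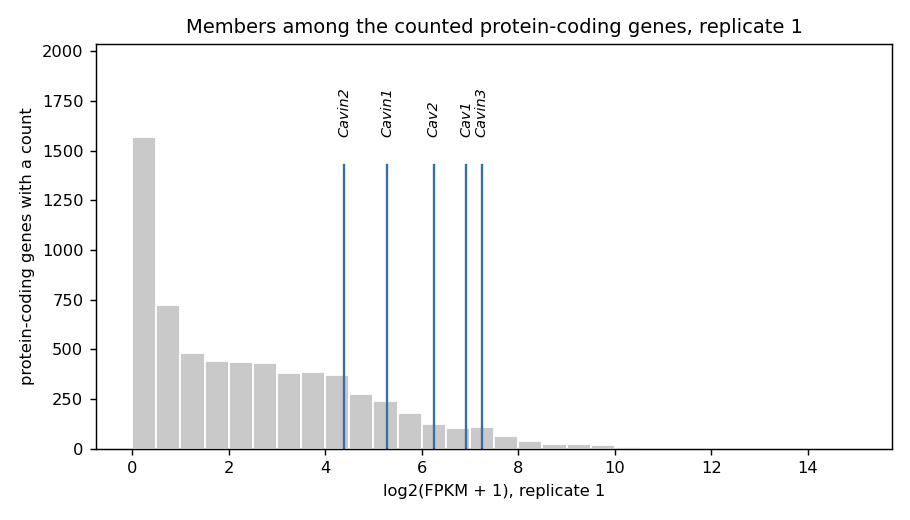
Number of protein-coding genes with a count in replicate 1 (vertical axis) by their log2(FPKM + 1) in that library (horizontal axis, bins of equal width), with lines at the 5 counted caveolin and cavin genes. The lines lie in the upper tail, from 4.40 for Cavin2 to 7.25 for Cavin3. Cav3, at 0, is not drawn.

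The bases that could have given these counts differed between the genes. A read on a base annotated to several IDs cannot be given to 1 of them under the usual setting of the counting tool, so that a gene is counted mainly on bases of a single ID. Cav3 and Cavin2 have 1 transcript each and no such overlap. Of the exonic bases of Cavin1, 2929 of 3587 (81.7%) belonged to the counted ID alone. For Cavin3 these were 1288 of 1662 bases (77.5%), as 374 bases are shared with Gm45667, and for Cav2 they were 1819 of 3335 (54.5%), 1677 of them in the 3' part of the gene from 17287439 to 17289115.

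Cav1 was the exception among the 6 genes, with 10 annotated transcripts. If each distinct coding sequence, or transcript without one, is a separate ID, only 75 of its 3444 exonic bases (2.18%) belong to the counted ID. If both protein forms of Cav1 are counted under its 1 protein accession, 2300 bases do, 2101 of them at the 3' end from 17339352 to 17341452. Per kilobase of these bases, the level of Cav1 in replicate 1 was 5493 FPKM under the former count and 179.1 FPKM under the latter, against 194.5 FPKM for Cavin3, 137.3 for Cav2, 46.6 for Cavin1 and 20.1 for Cavin2. The place of Cav1 relative to Cavin3 therefore depends on the annotation. With both forms under 1 ID the FPKM of Cavin3 was 1.09 times that of Cav1, and their counting intervals overlapped at these lengths. The 4 genes below them kept their order.

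**Figure D3:**
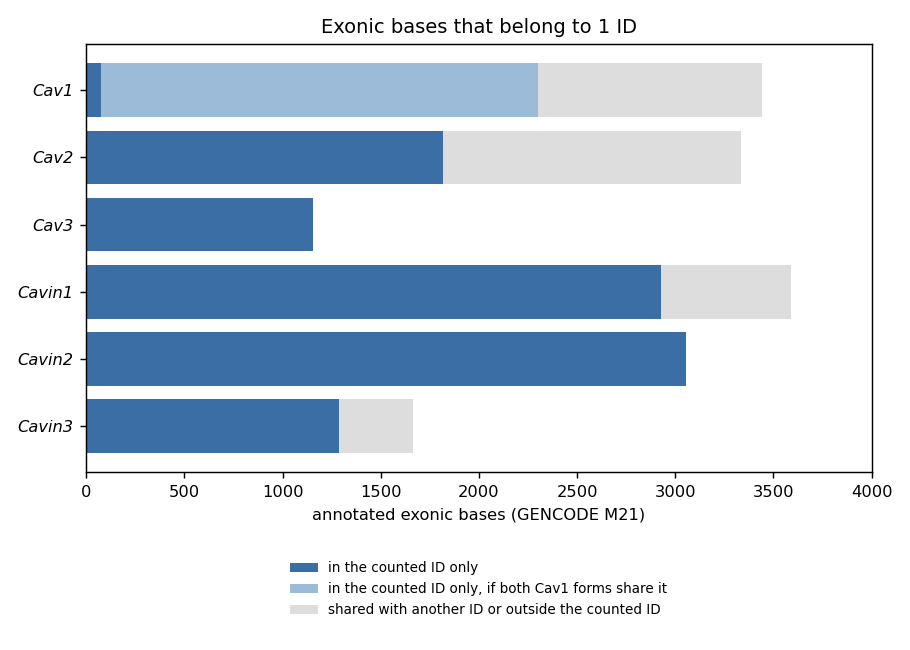
Exonic bases of each gene in GENCODE M21 (horizontal axis), divided into bases of the counted ID alone (dark), bases that also belong to it alone if both Cav1 forms share an ID (light blue) and all others (grey). Dark bars cover all 1157 bases of Cav3 and all 3055 of Cavin2, but 75 of the 3444 bases of Cav1.

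Antisense genes lie over several of the 6 genes, and whether the counting used strand is not given in the sources used here. Gm15581, an antisense gene that spans Cav2 and Cav1, had 0 counts in replicate 1 and 3 in replicate 2 and shares no exonic base with either. 9330175M20Rik, which spans Cavin2, was at 0 in both. Among 6 genes near Cav1 and Cav2 on chromosome 6, Capza2, which encodes an actin capping subunit, had 1306 counts in replicate 1 and 4 in replicate 2. Met, a receptor tyrosine kinase gene, had 61 and 0, and the other 4 were at 0 in both libraries.

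Of 9 genes of other proteins of the caveola coat and neck, 5 had 3 or more counts in replicate 1 and 1 in replicate 2, and their sum was 243 CPM and 321 CPM. These shares were 55.6% and 11.1%, against 36.0% and 4.22% of protein-coding genes with no shared ID. Ehd2, whose product forms rings at the caveola neck, had 162 counts in replicate 1, its relative Ehd1 had 116 and Pacsin2, an F-BAR protein of caveolae, had 47, each with 0 in replicate 2. Ehd3 had 0 and 4 counts. Cavin4, the cavin of muscle, was listed at 0 in both libraries, as Cav3 was.

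Among 17 genes of other endocytic routes, including clathrin, adaptor, dynamin, flotillin and Rab5 genes, 8 reached 3 counts in replicate 1 and 2 in replicate 2, with sums of 2837 and 1447 CPM. The shares were 47.1% and 11.8%, against 36.0% and 4.22% of protein-coding genes with no shared ID. On IDs of 1 gene, the highest counts in replicate 1 were those of Cdc42, a small GTPase gene (3300 counts, and 1 in replicate 2), Rab5a of early endosomes (468 and 1) and the clathrin adaptor gene Ap2a2 (323 and 1). The clathrin light chain gene Cltb had 89, or up to 639 with IDs of several possible genes. In replicate 2, Rab5b had 11 counts and Ap2m1 had 4, while 12 of the 17 endocytic genes were at 0, as were all caveolin and cavin genes. Cltc, the clathrin heavy chain gene, had 0 counts on IDs of that gene alone and at most 2 in replicate 1 with IDs of several possible genes. Dnm2, a dynamin gene used in most tissues, was listed at 0 in both replicates, also with such IDs included, so a 0 in these files is only a listed value.

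Of 12 genes of kinases and partners of caveolins, 7 were counted at 3 or more in replicate 1 and 1 in replicate 2 (592 and 804 CPM in sum). Ptgs2, a prostaglandin synthase gene, had 459 and 0 counts, the growth factor receptor gene Igf1r 202 and 8, and the TGF-beta receptor gene Tgfbr1 127 and 0. Of 12 genes of caveola regulation and lipid supply, 9 and 0 reached 3 counts (479 and 321 CPM). These included the cholesterol exporter gene Abca1 (410 and 0), the cholesterol synthesis gene Hmgcs1 (101 and 0) and the sphingomyelin synthase gene Sgms2 (46 and 0). The shares of these lists in replicate 1, 58.3% and 75.0%, lay between the 36.0% of protein-coding genes and the 83.3% of the caveolin and cavin genes. In replicate 2 the shares were 8.33% and 0%, against 4.22% of protein-coding genes.

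**Figure D4:**
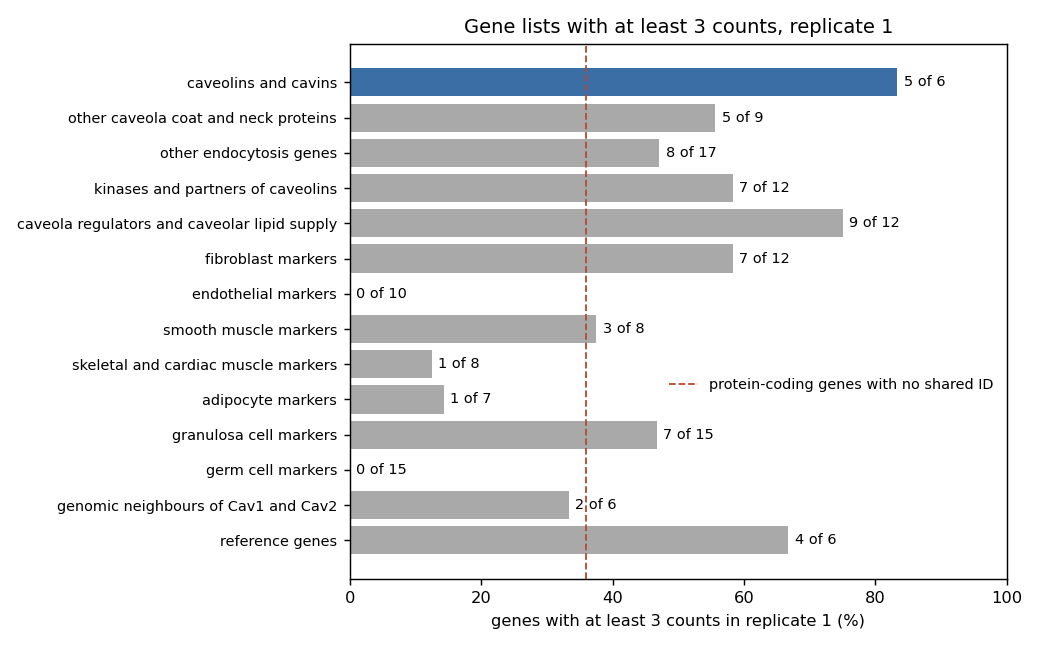
Share of each gene list with 3 or more counts in replicate 1 (horizontal axis, percent), with the number of genes beside each bar and a dashed line at the 36.0% of protein-coding genes with no shared ID. The caveolins and cavins (blue) are at 83.3%, and the endothelial and germ cell markers are at 0.

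Markers of cell types known to have caveolae were summed in the same libraries, and their part in the caveolin and cavin counts was not tested. Of 12 fibroblast markers, 7 reached 3 counts in replicate 1 and 3 in replicate 2, and they summed to 3008 and 1447 CPM. Their shares were 58.3% and 25.0%, against 36.0% and 4.22% of protein-coding genes with no shared ID. Dcn had 2281 counts in replicate 1 and 0 in replicate 2, Col1a2 910 and 6, Pdgfra 726 and 2, Col3a1 58 and 3, and Fn1 1 and 5. Col1a1 had 401 counts in replicate 1, Fbn1 138 and S100a4 45, each with 0 in replicate 2. The remaining markers were at or near 0. Vim and Thy1 had 1 count each in replicate 1, Postn had 2 in each replicate, and Lum was at 0 in both. The protein ID looked for of Vim was not listed, nor were those of Dcn, Col1a2 and Col3a1, so the values of these genes are those of other IDs. Part of the fibroblast markers were thus counted in the library with the caveolin and cavin counts, and 3 of them also reached 3 counts in the library without. Before the induction on granulosa cells, the FGSCs were cultured on feeder cells of a fibroblast line.

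Endothelial markers were nearly absent from replicate 1: 8 of 10 were at 0, Pecam1 and Kdr had 1 count each, and the sum was 1.32 CPM. In replicate 2, Pecam1 had 11 counts, the other 9 were at 0 and the sum was 884 CPM. Of all protein-coding genes with no shared ID, 47.3% had 1 or more counts in replicate 1 and 14.1% in replicate 2. Of 8 smooth muscle markers, Acta2 (35 counts), Des (28) and Mylk (19) were counted in replicate 1 (54.0 CPM in sum), Des had 1 count in replicate 2 (80.4 CPM), and Myh11, Tagln, Cnn1, Lmod1 and Smtn were at 0 in both. The skeletal and cardiac markers had 1 count in replicate 2, on Ttn (80.4 CPM). Of 7 adipocyte markers, Lpl had 92 counts in replicate 1 and 4 in replicate 2, Plin1 had 1 count in replicate 1 and Cidec 1 in replicate 2, the rest, with Adipoq among them, were at 0, and the sums were 61.3 and 402 CPM.

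Granulosa cells formed the monolayer of the culture. Of 15 granulosa cell markers, 7 (46.7%) reached 3 counts in replicate 1 and 0 in replicate 2 (627 and 321 CPM). Of protein-coding genes with no shared ID, 36.0% and 4.22% did. The highest markers in replicate 1 were Kitl (453 and 1), Fst (229 and 0) and Gja1 (224 and 1). The defining markers Foxl2 and Amh were at 0 in both libraries, and Fshr had 0 and 2 counts. The samples are labelled as germline cells, but 14 of 15 germ cell markers, Ddx4, Dazl, Stra8 and Sycp3 among them, were listed at 0 in replicate 1 and all 15 in replicate 2, and Kit had 1 count in replicate 1. Of the 13657 protein-coding genes with no shared ID, 47.3% had 1 or more counts in replicate 1 but only 14.1% in replicate 2. A list at 0 in replicate 2 is therefore little different from most genes. The study reports that Stra8 and Sycp3 were detected after the induction, with RT-PCR of germ cell markers and immunofluorescence of Stra8. Those assays were not analysed here, and a listed 0 does not show that a gene was not transcribed. Of the germ cell markers, Ifitm3 could have more, since IDs that could belong to it or to another gene held 10577 counts in replicate 1 and 6 in replicate 2. Of 6 reference genes, Hprt had 2556 and 1 counts, Ptma 265 and 2 and Actb 64 and 0. The others were low for genes that most cells use strongly, with 22 counts for Gapdh, 2 for Ppia and 1 for Eef1a1 in replicate 1 and 0 in replicate 2. The protein IDs looked for of Ppia and Eef1a1 were not listed, and neither was that of Ptma. The low counts of Ppia and Eef1a1 are thus those of other IDs only and may not give the levels of these genes. In replicate 2, 4 of the 6 reference genes were at 0, as were the caveolin and cavin genes, and the list summed to 241 CPM, the level of 3 counts.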

How the data were processed

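The values the authors deposited are raw counts per ID, not normalized, for each library. The submitters' processing notes name FastQC, Trim Galore, HISAT2 2.2.1, featureCounts and mm10, whereas the methods of the study describe TopHat and Cufflinks. The annotation, strand setting and treatment of reads on several IDs are not given in the sources used here. IDs were Ensembl transcripts, joined to genes through GENCODE M21 (GRCm38), or protein accessions, assigned by their place between annotated transcripts where 1 gene remained. With 50% of the Ensembl IDs hidden and 20% of these dropped, 17186 of the 30036 hidden IDs left were placed in 1 gene, all in the right one. The candidates of that check came from the same annotation as the hidden IDs. It therefore cannot show errors from a different annotation behind the accessions. Of accessions of known genes, 40 of the 40 placed in 1 gene were in the right one. Of 65 such accessions looked for, 4 others, Cavin3 among them, had several possible genes, and 21 were not listed, among them those of Vim, Eef1a1, Ppia, Dcn, Col1a2, Col3a1, Igf1r and Ptma, whose counts are on other IDs.

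CPM and FPKM were computed from the counts, with the total over all IDs and the union of exons. Samples were grouped by their titles, and with 1 group no test was run and no p-value is given. The methods of the study state FPKM, and the deposited counts were therefore converted. The members and lists were chosen with earlier results of these data known. All 6 genes were named. In each other list, up to 3 genes with most counts in replicate 1 and those with 3 or more in replicate 2 were named. Defining markers at 0 or with 1 to 2 counts and reference genes with few counts were chosen after their values were seen. So were the remaining fibroblast markers, Cltb, Cltc, Dnm2 and Cavin4. The 4 protein-coding genes nearest to the highest member in log2(FPKM + 1) were also named. Alternatives covered IDs, totals, lengths, pseudocount, minimum counts and each replicate left out. Computation was in Python 3.11.15 with pandas 2.3.3 and numpy 2.4.6, intervals were from scipy 1.17.1 and plots from matplotlib 3.10.9.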

Additional observations from a re-analysis of the deposited data

How the results depend on the processing

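No paired analysis was possible because the design holds 1 group only. The summed CPM of the 6 genes in replicate 1, 1110, became 0.659 with Ensembl transcript IDs only, 1259 with mitochondrial IDs left out of the total and, in an alternative chosen after seeing the data, 859.5 without the Cavin3 accession. It did not change when ambiguous IDs were given to the genes. The summed FPKM, 201.7 as the mean of both libraries, ranged from 0 to 403.3 when 1 library was left out, was 400.0 with pooled reads, and was 2946 per kilobase of bases of 1 ID, where Cav1 alone accounts for most of it, or 288.8 with both Cav1 forms under 1 ID, which was also chosen after seeing the data. Of the 6 places in the order by FPKM, 4 were kept with bases of 1 ID and 4 with counts without length, Cav1 and Cavin3 changing places. All 6 were kept with both Cav1 forms under 1 ID, where the counting intervals of Cav1 and Cavin3 overlapped. The share of 83.3% of the 6 genes was the same at minimums of 1 and 10 counts, while that of protein-coding genes was 47.3% and 29.1%, and 69.3% among genes with a count in either library. With a pseudocount of 0.1, the median log2 FPKM of the 6 genes was 5.74 in place of 5.77. The depth of replicate 2 limits every comparison between the libraries, since levels under 241.1 CPM could not be shown there.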
